A study of Homo sapiens with 12 samples.

Results

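The messenger RNAs of 10 SR splicing factors were followed in RNA recovered with ADAR3 from U373-MG cells, a human glioblastoma line. They were the transcripts of SRSF1, SRSF2, SRSF3, SRSF4, SRSF5, SRSF6, SRSF7, SRSF11, TRA2A and TRA2B, taken by gene identifier from 31707 genes in the deposited tables, and each was present in both tables. ADAR3 belongs to the adenosine deaminases that act on double-stranded RNA, which it binds although no editing by it is known. RNA and protein were crosslinked with ultraviolet light (150 mJ/cm2), the cells were lysed and sonicated, and RNA was immunoprecipitated (IP). The 12 libraries form 3 groups of 4, all from unmodified U373-MG cells: IP of endogenous ADAR3 (ADAR3 IP), IP with pre-immune serum (serum IP), which measures what is recovered non-specifically, and total input RNA. Input libraries began with 1 µg of total RNA, and IP libraries with whatever the IP yielded. The labels name no separate cultures for the replicates, so the p-values rest on the spread of these libraries alone, and that spread may be technical.

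SR proteins are splicing factors with an RNA recognition motif and a domain rich in arginine and serine dipeptides. They bind enhancer sequences in exons, help the spliceosome to recognise nearby splice sites, and gather in nuclear speckles. Many SR genes regulate themselves: they contain a conserved "poison" exon whose inclusion sends the transcript to nonsense-mediated decay. The values here count reads per gene and do not separate isoforms.

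Depth was 23999234 to 30156884 reads assigned to genes in ADAR3 IP, 1875461 to 4946149 in serum IP and 4873428 to 12772412 in input. The ADAR3 IP libraries were the deepest, and serum replicates spread more than theirs: over the 11112 genes tested, the median log2 SD was 0.21 in ADAR3 IP and 0.81 in serum IP. Levels below are CPM, reads scaled to the assigned reads of each library, which are shares of a library and not amounts of RNA recovered. CPM depends on transcript length, so levels are compared between groups for the same gene and not between genes. The ADAR3 transcript itself and marker genes of the cell line were not used here, because only the 10 SR identifiers came with a symbol. No sequence is shown because none of the reference tables used here held these transcripts or proteins.

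Most SR mRNAs made up a smaller share of ADAR3 IP than of input. Between ADAR3 IP and serum IP, limma and edgeR called none of the 9 tested different, where they called 4.07% and 4.45% of all genes tested. DESeq2 called SRSF2 and SRSF5 lower in ADAR3 IP, where it called 6.57% of all genes tested lower. SRSF2, SRSF5 and SRSF7 stood at 0.416, 0.443 and 0.398 times their input level in ADAR3 IP. SRSF4 went the other way, at 1.67 times input. Of the 9 SR mRNAs that passed the minimum level (50 normalized counts on average in the 8 IP libraries), 6 had all 4 ADAR3 IP libraries below all 4 input libraries, and 1, SRSF4, had all 4 above. Among all 11112 genes that passed, ADAR3 IP lay wholly below input for 31.7% and wholly above for 29.3%. SRSF6 did not pass the minimum.

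The tables of IP and of input values had been normalized apart from each other, so these levels were set side by side in CPM of recovered reads and not tested. Relative to input, the median log2 ratio of ADAR3 IP was -1.01 over the 10 SR mRNAs, with a range of -1.32 to 0.74, and 0.0023 over all genes tested, whose quartiles were -0.51 and 0.48. The median log2 ratio of serum IP over input was -0.52 over the 10 SR mRNAs and -0.048 over all genes tested. Both ratios share the input libraries. Pre-immune IP lay wholly below input for 3 of the 9 SR mRNAs, SRSF2, SRSF3 and SRSF5, where the share among all genes tested was 16.3%, and wholly above for 0 of 9, where it was 5.93%. With median-ratio factors over the 12 libraries it lay wholly below for 2, SRSF2 and SRSF3, and wholly above for 1, SRSF4. The shares among all genes tested are for CPM and were not computed with those factors.

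**Figure D1:**
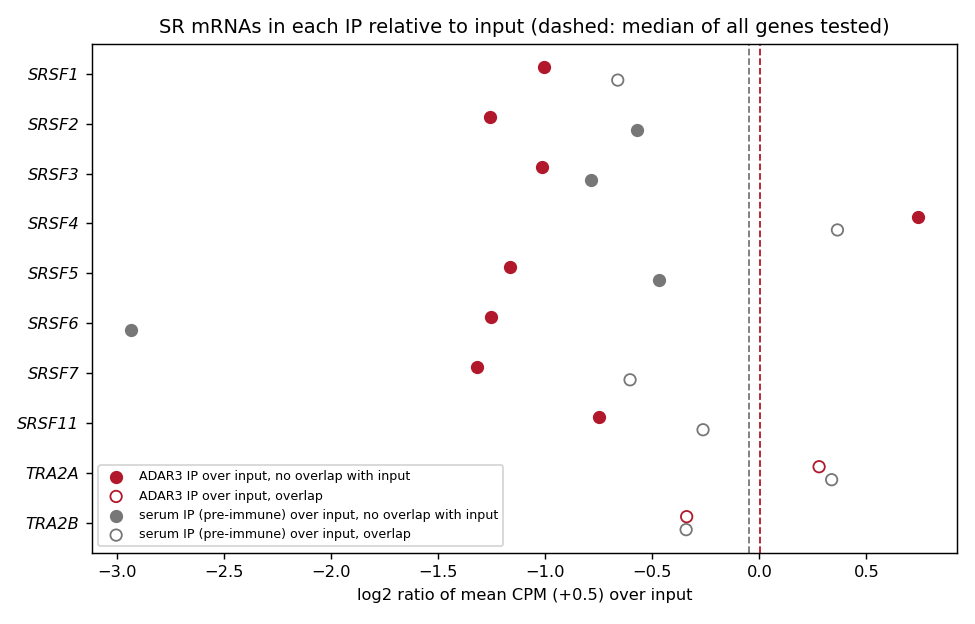
Log2 ratio of mean CPM (with 0.5 added) over input for the 10 SR mRNAs, in ADAR3 IP (red) and serum IP (grey). Filled points mark genes whose 4 IP libraries do not overlap the 4 input libraries, and dashed lines give the median of all genes tested; 7 red points lie between -1.32 and -0.75, and SRSF4 lies at 0.74.

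SRSF2 (ENSG00000161547, chr17:76734115-76737411, GRCh38) encodes SC35, a nuclear speckle protein that acts in both constitutive and alternative splicing. It had 98.8, 65.2, 93.7 and 70.6 CPM in ADAR3 IP, 104, 159.5, 161 and 106 CPM in serum IP, and 199, 196, 206 and 188 CPM in input. The 3 groups did not overlap: every ADAR3 IP library lay below every serum library, and every serum library below every input library. How many of all genes tested have this order was not counted. The mean was 82.1 ± 16.7 CPM in ADAR3 IP, 133 ± 32.1 CPM in serum IP and 197 ± 7.27 CPM in input (SD, n = 4 each). The log2 fold change of ADAR3 IP over serum IP was -0.76 ± 0.22 (SE; limma adjusted p = 0.0821), which misses the threshold of 0.05. The gene overlaps MFSD11 by 778 bases and contains the microRNA gene MIR636, so reads of the shared bases are uncertain. RefSeq names 1 pseudogene of SRSF2.

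SRSF5 (ENSG00000100650, chr14:69767142-69772005) encodes a protein with a pair of RNA recognition motifs and is a relative of SRSF4 and SRSF6. Its level was 56.4, 59.6, 52.7 and 55.4 CPM in ADAR3 IP, 68.1, 89.8, 98.2 and 109 CPM in serum IP, and 132, 119.6, 129 and 125 CPM in input. The 3 groups were again fully apart in CPM and in the same order as for SRSF2, but serum IP and input overlapped when all 12 libraries were scaled by median-ratio factors. The mean was 56.0 ± 2.85 CPM in ADAR3 IP, 91.2 ± 17.2 CPM in serum IP and 126 ± 5.20 CPM in input (SD, n = 4 each). Its log2 fold change of ADAR3 IP over serum IP was -0.76 ± 0.21 (SE; limma adjusted p = 0.0746). SRSF5 overlaps a non-coding RNA gene on the opposite strand by 572 bases.

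SRSF4 (ENSG00000116350, chr1:29147743-29181900) stood apart from its relative. It had 213, 211, 205 and 229 CPM in ADAR3 IP, 171, 123, 235 and 131 CPM in serum IP, and 138, 125, 130.3 and 119 CPM in input. All ADAR3 IP libraries lay above all input libraries, whereas the serum libraries overlapped both other groups in CPM. The mean was 215 ± 10.3 CPM in ADAR3 IP, 165 ± 51.5 CPM in serum IP and 128 ± 8.31 CPM in input (SD, n = 4 each). The log2 fold change of ADAR3 IP over serum IP was 0.34 ± 0.18 (SE; limma adjusted p = 0.356), beside a median of 0.25 over all genes tested. With edgeR on recovered reads it was 0.37, beside a median of -0.00063. RefSeq places 14205 bases of SRSF4 within the span of MECR on the same strand. How reads of that overlap were assigned is not given in the sources used here, and its part in the SRSF4 values was not tested.

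SRSF6 (ENSG00000124193, chr20:43457896-43464243), also a relative of SRSF4 and SRSF5, was scarce in the tables. It had 87, 52, 108 and 62 reads in ADAR3 IP, 0, 6, 0 and 0 reads in serum IP, and 90, 75, 36 and 76 reads in input. These reads correspond to 1.72 to 3.96 CPM in ADAR3 IP, 0 to 2.15 CPM in serum IP and 7.05 to 7.83 CPM in input. ADAR3 IP lay wholly below input, and it overlapped serum IP because of the single serum library with reads. A count of 0 allows up to 0.607, 0.683 and 1.60 CPM in serum replicates 1, 3 and 4 (3 reads of each total, for counting error only). In the authors' deposited table its log2 fold change of ADAR3 IP over serum IP was 2.32 (adjusted p = 0.334). RefSeq names 2 pseudogenes of SRSF6, with which reads may be shared.

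SRSF3 (ENSG00000112081, chr6:36594362-36605600) and SRSF7 (ENSG00000115875, chr2:38743599-38751494) encode close relatives that also act as adaptors for mRNA export. SRSF3 ranged over 108 to 117 CPM in ADAR3 IP, 88.0 to 155 CPM in serum IP and 219 to 236 CPM in input. Both IPs lay wholly below input, and the range of ADAR3 IP fell inside that of serum IP. Its log2 fold change of ADAR3 IP over serum IP was -0.28 ± 0.19 (SE; limma adjusted p = 0.467). RefSeq names 5 pseudogenes of SRSF3.

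SRSF7 had 43.8, 39.99, 32.9 and 40.4 CPM in ADAR3 IP, 93.6, 74.7, 24.6 and 66.1 CPM in serum IP, and 104, 99.0, 99.9 and 92.1 CPM in input. ADAR3 IP lay below input in every library, but 1 serum library, replicate 3, fell below all ADAR3 IP libraries while the other 3 lay above them. The log2 fold change of ADAR3 IP over serum IP was -0.65 ± 0.41 (SE; limma adjusted p = 0.430). Without serum replicate 3 it was -1.10 (limma adjusted p = 0.0312), so that 1 library decided the call. Without that library limma called 599 of all genes tested, and 452 with it.

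SRSF1 (ENSG00000136450, chr17:57989038-58007246) encodes SF2/ASF, the founding SR protein. It had 4.07, 6.17, 5.43 and 7.67 CPM in ADAR3 IP, 4.04, 6.08, 20.0 and 0 CPM in serum IP, and 12.2, 13.5, 10.9 and 12.3 CPM in input. ADAR3 IP lay wholly below input, and the serum libraries reached from 0 to above every input library. Its log2 fold change of ADAR3 IP over serum IP was 1.02 ± 1.61 (SE; limma adjusted p = 0.749), although the mean CPM was lower in ADAR3 IP, at 5.84 ± 1.498, than in serum IP, at 7.54 ± 8.71 (SD, n = 4 each). The positive sign came from serum replicate 4 with its 0 reads, and without that library the value was -0.53 (limma adjusted p = 0.693). SRSF1 overlaps a non-coding RNA gene on the opposite strand by 1997 bases, and RefSeq names 1 pseudogene of it.

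SRSF11 (ENSG00000116754, chr1:70205696-70253052), which encodes a more distant, arginine- and serine-rich relative, ranged over 71.2 to 89.8 CPM in ADAR3 IP, 60.3 to 154 CPM in serum IP and 123 to 159 CPM in input. ADAR3 IP lay wholly below input, and serum IP overlapped both. The log2 fold change of ADAR3 IP over serum IP was -0.49 ± 0.27 (SE; limma adjusted p = 0.369). Without serum replicate 4, which at 60.3 CPM was the lowest of its group, it was -0.76 (limma adjusted p = 0.0273). Without that library limma called 791 of all genes tested, and 452 with it. RefSeq names 1 pseudogene of SRSF11.

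TRA2A and TRA2B encode the Transformer-2 proteins, SR-like activators that bind purine-rich exonic enhancers. TRA2A (ENSG00000164548, chr7:23504780-23531981) had 61.6, 64.9, 66.0 and 55.5 CPM in ADAR3 IP, 62.1, 42.9, 96.3 and 57.1 CPM in serum IP, and 59.3, 48.4, 49.5 and 46.9 CPM in input. The 3 groups overlapped, with 3 of the 4 ADAR3 IP libraries above every input library. Its log2 fold change of ADAR3 IP over serum IP was -0.081 ± 0.25 (SE; limma adjusted p = 0.875).

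TRA2B (ENSG00000136527, chr3:185914558-185938014) had 281, 231, 202 and 223 CPM in ADAR3 IP, 277, 300.4, 268 and 90.1 CPM in serum IP, and 315, 288, 305 and 278 CPM in input. The groups overlapped, and serum replicate 4 lay far below the other 11 libraries. Its 169 reads there give a 95% exact Poisson interval of 77.0 to 105 CPM, which covers counting error only and leaves out the level of every other library. The log2 fold change of ADAR3 IP over serum IP was 0.054 ± 0.32 (SE; limma adjusted p = 0.936).

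**Figure D2:**
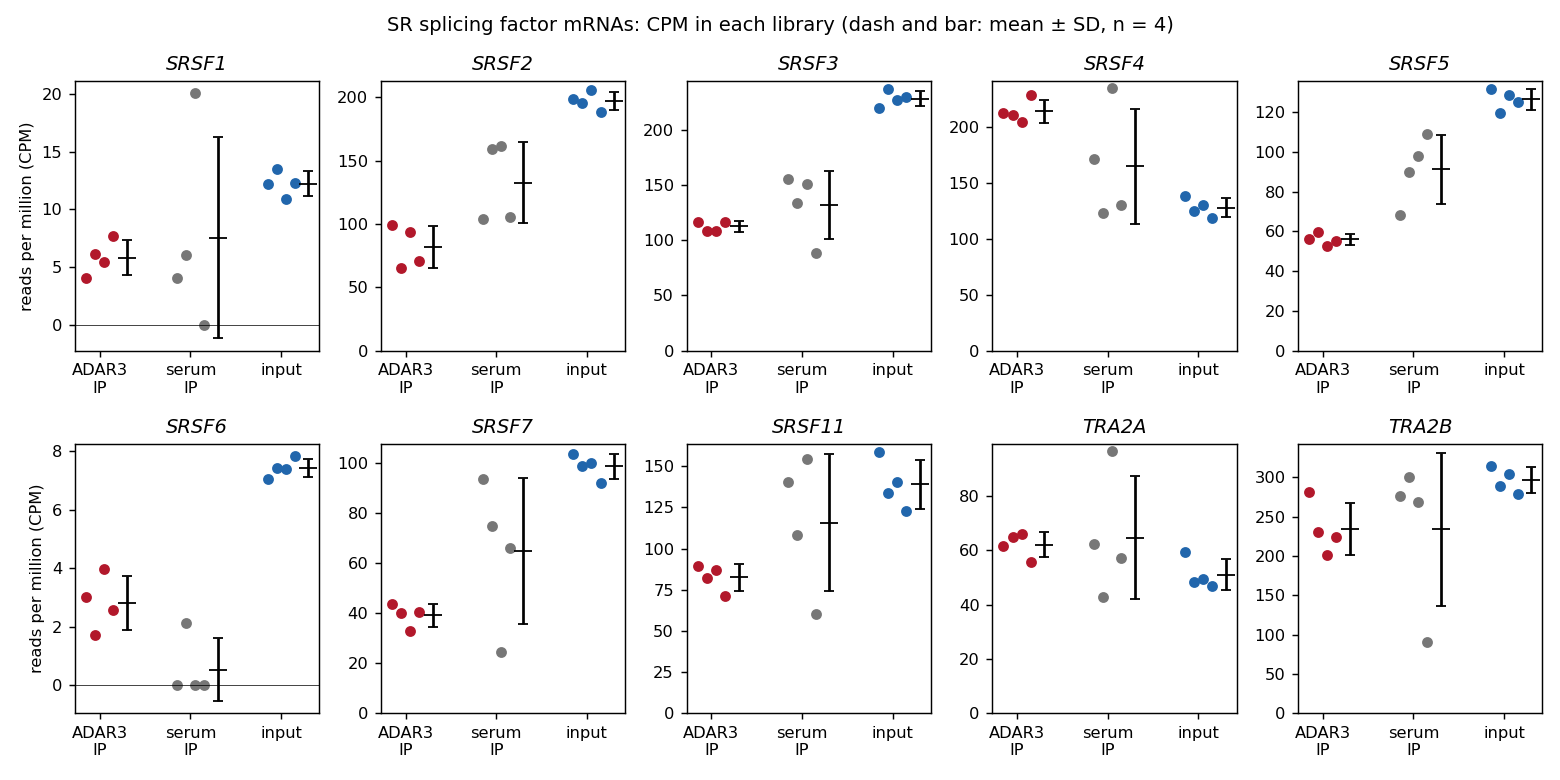
CPM of each SR mRNA in every library, by group, with the mean and SD of 4 libraries beside the points. SRSF2 and SRSF5 show 3 separate groups with ADAR3 IP lowest, SRSF4 is highest in ADAR3 IP apart from 1 serum library, and the serum points scatter most.

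Ordered by mean level, SRSF1, SRSF2, SRSF3, SRSF5, SRSF7 and SRSF11 were lowest in ADAR3 IP, intermediate in serum IP and highest in input. Among these, only SRSF2 and SRSF5 had no overlap in CPM between any neighbouring groups. The share of all genes tested with all 3 groups apart in this order was not computed, so whether this is unusual is not known. SRSF4 had the reverse order. TRA2A was highest in serum IP and lowest in input, with overlap between all neighbours. TRA2B was highest in input, and its means in the IPs were 234 ± 33.4 CPM in ADAR3 IP and 234 ± 96.8 CPM in serum IP (SD, n = 4 each).

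Setting ADAR3 IP against serum IP addresses which RNAs the antibody recovered in a larger share than serum did. limma called 0 of the 9 SR mRNAs, where 4.07% of all genes tested were called (Benjamini-Hochberg adjusted p under 0.05). At an unadjusted limma p under 0.05 there were 2, SRSF2 and SRSF5, and 17.5% of all genes. The median log2 fold change was -0.28 over the 9 SR mRNAs and 0.25 over all genes tested, and 7 of the 9 lay below that median, which was -0.00063 with edgeR and -0.062 with DESeq2. The 95% intervals reached from -1.24 to -0.28 for SRSF2 and from -1.23 to -0.30 for SRSF5, so the missed threshold does not show equal levels. The interval for SRSF4 was -0.056 to 0.74, and that for SRSF1, -2.52 to 4.57, set almost no bound.

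ADAR3 IP lay wholly below serum IP in CPM for 2 of the 9, SRSF2 and SRSF5, where the share among all genes tested was 5.31%. It lay wholly above for 0 of 9, where the share was 10.7%. In the authors' deposited table both were lower at an adjusted p under 0.05, a rule met by 5.63% of the genes with such a value. Their deposited log2 fold changes were -0.77 for SRSF2 (adjusted p = 0.00782) and -0.77 for SRSF5 (adjusted p = 0.000116). DESeq2 on the recovered reads also called these 2 lower, and no other SR mRNA, where 6.57% of all genes were called lower, and edgeR's quasi-likelihood test called 0, where it called 4.45% of all genes. Its adjusted p was 0.106 for SRSF2 and 0.0970 for SRSF5. With limma, SRSF2 passed without serum replicate 4 (adjusted p = 0.0484) and SRSF5 without serum replicate 1 (adjusted p = 0.0302). Those fits called 791 and 544 of all genes tested, beside 452 in the main fit. Neither gene passed when any single ADAR3 IP library was left out, and those fits called fewer of all genes tested, 171 to 211. With limma variance weights per group, the adjusted p was 0.283 for SRSF2 and 0.238 for SRSF5. With the replicate block in limma it was 0.113 and 0.168. Whether the SRSF2 and SRSF5 values count as a difference between the IPs therefore depended on the test and on single serum libraries, while their direction was the same in all tests run.

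**Figure D3:**
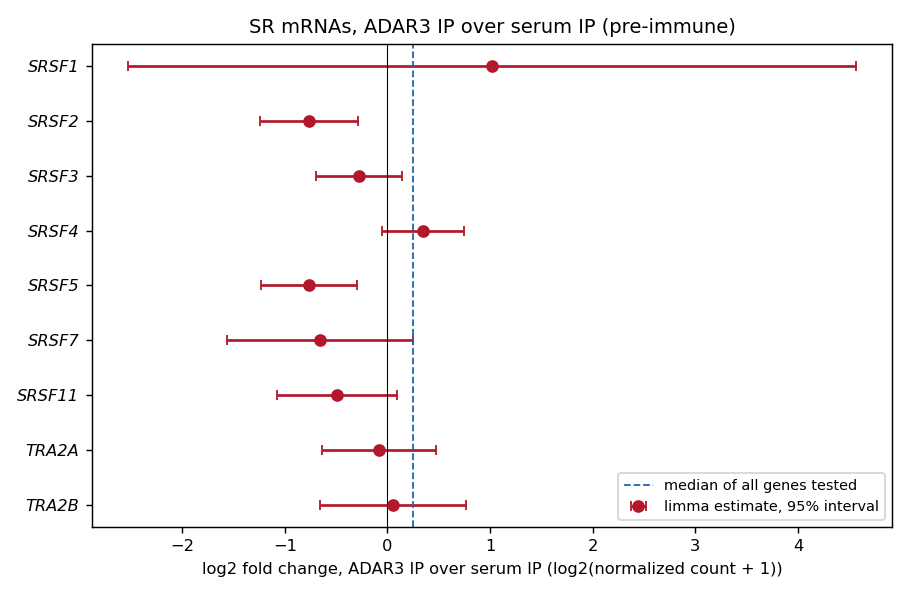
Log2 fold change of ADAR3 IP over serum IP for the 9 SR mRNAs tested, on the log2(normalized count + 1) scale, with 95% intervals from limma. The dashed line is the median of all genes tested, 0.25; the intervals of SRSF2 and SRSF5 lie below 0, and that of SRSF1 is the widest.

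Ratios of reads between related SR mRNAs within a library do not depend on how libraries are scaled. The pairs were chosen after the values were seen, and the ratios are given as a description. The SRSF4 to SRSF5 ratio was 3.77, 3.54, 3.90 and 4.14 in ADAR3 IP, 2.52, 1.37, 2.40 and 1.20 in serum IP, and 1.05, 1.05, 1.01 and 0.948 in input. The 3 groups did not overlap, and the ratio was highest in ADAR3 IP. The TRA2A to TRA2B ratio was 0.219 to 0.327 in ADAR3 IP, 0.143 to 0.633 in serum IP and 0.162 to 0.189 in input. The SRSF3 to SRSF7 ratio was 2.67 to 3.29 in ADAR3 IP, 1.33 to 6.11 in serum IP and 2.11 to 2.49 in input. For both of these pairs ADAR3 IP lay wholly above input, and serum IP overlapped both groups.

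**Figure D4:**
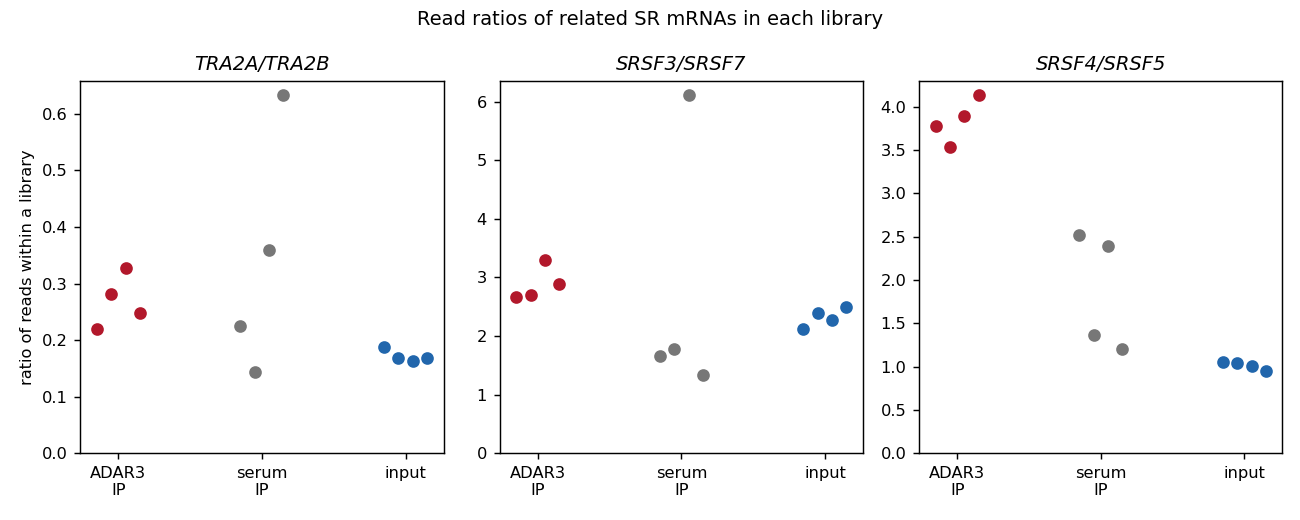
Ratio of reads within each library for the pairs TRA2A and TRA2B, SRSF3 and SRSF7, and SRSF4 and SRSF5, by group. The SRSF4 to SRSF5 ratio is 3.54 or more in every ADAR3 IP library and at most 2.52 in serum IP and 1.05 in input.

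The genes outside the set whose profile was most like the mean standardised log2 CPM profile of the 10 SR mRNAs over the 12 libraries were ENSG00000163541 and ENSG00000182325. Their Pearson correlations with that profile were 0.967 and 0.961, as a description, since all genes share the same libraries and their depths. ENSG00000163541 had a mean of 23.8 ± 3.47 CPM in ADAR3 IP, 34.2 ± 18.1 CPM in serum IP and 64.7 ± 1.52 CPM in input (SD, n = 4 each). Each SR mRNA is itself part of the mean profile, which raises its correlation with it. The correlations were 0.937 for SRSF3, 0.925 for SRSF11, 0.84 for SRSF1, 0.81 for TRA2B and 0.80 for SRSF2. They were 0.59 for SRSF5, 0.52 for SRSF6 and 0.42 for SRSF7, but -0.31 for SRSF4 and -0.080 for TRA2A. The set therefore did not follow a single profile.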

How the data were processed

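RIP-seq values of 12 U373-MG libraries were used, with groups and replicate numbers read from the titles. Strand-specific libraries were made after depletion of ribosomal RNA, with 15 cycles of amplification, per the labels' protocols. The submitters' processing notes name STAR 2.7.7a, featureCounts, DESeq2 and GRCh38 but no roles; neither the annotation nor how strand was handled is stated there. The values the authors deposited are a signal: reads per gene over a library's size factor, in 1 table for the 8 IP libraries and 1 for input. At a tolerance of 0.001 reads, 100% of values were whole reads, so reads and CPM were recovered. Log2 fold changes and adjusted p-values by the authors, deposited in the IP table, are quoted as theirs.

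The main test was limma 3.58.1 (R 4.3.3) on log2(normalized count + 1) with a variance trend, for genes with a mean of at least 50 over the IP libraries, adjusted over all 11112. Changes of low genes depend on the pseudocount. With limma SRSF1 was 1.84 at a pseudocount of 0.1, 1.02 at 1 and 0.48 at 5, but it was -0.35 with edgeR. Limma values of low genes are therefore not lower bounds. edgeR 4.0.16 on recovered reads called 299 genes higher and 195 lower; DESeq2 1.42.0 was another alternative. Scripts were tested on simulated data with an equal spread in both IPs and larger changes than those of SRSF2 and SRSF5. That test therefore gives no error rates for these libraries. Symbols of the 10 members came with their identifiers, and positions from RefSeq (GRCh38.p14) by symbol, for 10 of 10. The reference table held 0 Ensembl identifiers, so related gene lists and markers were not analysed. All 10 members were named, plus the 2 genes with the most similar profile. Members and lists were chosen with earlier results of these data known. Deviations of same-numbered IP libraries correlated at -0.0016 to 0.024, and the numbers were not taken to pair libraries in the main test. Serum libraries spread widely (median log2 SD 0.81), and differently numbered libraries were not compared. These correlations therefore do not show that the libraries were unpaired.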

Additional observations from a re-analysis of the deposited data

Results flagged for a closer look

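Of 45 sets of 4 values examined, 4 had 1 library apart from the other 3 by Dixon's test. The sets were the CPM of each SR mRNA, their sum, depth and the 3 read ratios, in each group. For independent, normally distributed values chance marks about 1 set in 20. That rate does not hold for a set of mostly 0 reads, as for SRSF6 in serum IP, and the sets share reads. SRSF6 was at 2.15 CPM in serum IP replicate 2, from 6 reads, and at 0 in the other 3 libraries. TRA2B was at 90.1 CPM in serum IP replicate 4, below the 268 CPM or more of the other 3. The SRSF3 to SRSF7 ratio was 6.11 in serum IP replicate 3, above 1.79 or less in the others. The summed level of the 10 SR mRNAs was 968 CPM in ADAR3 IP replicate 1 and at most 873 CPM in the other ADAR3 IP libraries.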

How the results depend on the processing

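Over 188 pairs of SR mRNA and setting, 178 kept the direction of the fold change of ADAR3 IP over serum IP, and 6 passed the threshold. SRSF2, SRSF3, SRSF4, SRSF5, SRSF7 and SRSF11 kept theirs throughout. SRSF1, 1.02 with limma, was -0.35 with edgeR and -0.41 with DESeq2, and -0.53 to 1.955 with 1 library left out. TRA2A, -0.081, was 0.063 with TMM factors and 3.65e-05 with library size alone, and -0.24 to 0.098 with 1 library left out. TRA2B, 0.054, was -0.021 with edgeR and -0.078 with DESeq2, and -0.34 to 0.23 with 1 library left out. The count of SR mRNAs called, 0, became 2 with DESeq2 and was 0 to 2 with 1 library left out: SRSF5 without serum replicate 1 (adjusted p = 0.0302), SRSF7 without replicate 3, and SRSF2 (adjusted p = 0.0484) and SRSF11 without replicate 4. Over all settings the adjusted p ranged from 0.0054 to 0.283 for SRSF2 and from 0.00197 to 0.258 for SRSF5. With the replicate block limma called 0 SR mRNAs and 403 genes in all, and edgeR with the block, added after the data were seen, 0 and 310.

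The count of all genes called, 452, became 903 at a minimum of 10, 1726 with no filter, 1353 with DESeq2 and 197 with variance weights per group, and with 1 library left out it was lowest, 171, without ADAR3 IP replicate 2 and highest, 791, without serum replicate 4. The split of 259 higher and 193 lower became 449 and 129 with TMM factors, 333 and 147 with library size alone and 623 and 730 with DESeq2. The median of all genes tested, 0.25, was 0.39 with TMM factors, 0.45 with no filter, 0.37 at a minimum of 10, 0.094 at a minimum of 200, -0.00063 with edgeR and -0.062 with DESeq2. The median log2 ratio of the 10 SR mRNAs over input, -1.01 in ADAR3 IP, was -0.97 with median-ratio factors, -0.95 with TMM factors and -1.04 with a pseudocount of 0.1 CPM, and -1.09 to -0.96 with 1 library left out. The total of SR mRNAs that did not overlap input was 7 to 8 for ADAR3 IP and 3 to 4 for serum IP under these scalings and with 1 library left out. Leaving out a library can only keep or add genes without overlap, so those counts could not fall and do not show stability. The shares among all genes tested were not computed for these settings. The genes changed: TRA2A lay wholly above input in ADAR3 IP without ADAR3 IP replicate 4 or input replicate 1, and in serum IP median-ratio factors exchanged SRSF5 below input for SRSF4 above it. What caused these shifts was not tested. Alternatives for related gene lists were not run. Depth limits SRSF1 and SRSF6 most, with 125 and 6 reads over the 4 serum libraries.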

Other observations

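Within the summed reads of the 10 SR mRNAs, a share that does not depend on scaling, SRSF4 took 24.1% ± 1.75 in ADAR3 IP, 16.4% ± 3.42 in serum IP and 9.97% ± 0.244 in input (SD, n = 4 each). TRA2B took 26.2% ± 2.26 in ADAR3 IP, 22.4% ± 6.97 in serum IP and 23.1% ± 0.361 in input. Each such share also depends on the other members. In CPM, the mean of TRA2B was 234 in ADAR3 IP and 296 in input, and these groups overlapped. SRSF3 took 12.6% ± 0.542 in ADAR3 IP, 13.04% ± 0.948 in serum IP and 17.8% ± 1.16 in input, and SRSF2 9.18% ± 1.65, 13.3% ± 2.58 and 15.4% ± 0.413 in the same order. Together the 10 SR mRNAs held 892 ± 51.1 CPM in ADAR3 IP, 1008 ± 214 CPM in serum IP and 1285 ± 52.3 CPM in input (SD, n = 4 each). Every ADAR3 IP and every serum library lay below every input library in this sum, and the IPs overlapped. The gap to serum IP was narrow, with serum replicate 3 at 1208.6 CPM and input replicate 4 at 1221.8 CPM. The sum was not examined under other scalings.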
